A study of Mus musculus with 12 samples.

Results

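The coagulation and complement genes of the liver were described across 4 treatments in 12 mouse liver arrays. The set held 40 named genes, and 37 of them had a probe set that carried exactly 1 gene symbol in the deposited annotation. Where a gene had several such probe sets, the one with the highest mean over the 12 arrays was used. Klkb1, the gene of plasma prekallikrein, shared its probe set with Cyp4v3 and was left out, and Cpb2 and C3 were not analysed here. The 37 genes were chosen by name, with earlier results of these data known, and all of them passed the filter on low values.

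Wild type C57BL/6 mice, 6 weeks old, received a subcutaneous dose of Albulin, Insulin-Apo or insulin glargine at 55 nmol/kg, or saline, and the liver was taken 6 h later, with 3 arrays per group. Albulin is a fusion of insulin with albumin, and Insulin-Apo is a single-chain insulin joined to apolipoprotein A-I, the main protein of high density lipoprotein. Per the methods, both fusion proteins were made in E. coli. Insulin glargine is an insulin analogue in clinical use that is absorbed slowly from the injection site. It carries no fusion partner. The labels do not say whether each array came from its own mouse, and the p-values reflect the spread among these arrays alone.

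Hepatocytes make most of the soluble proteins of coagulation and complement. In coagulation, a cascade of serine proteases ends in thrombin, which cuts fibrinogen into fibrin, and serpins and the protein C pathway restrain it while plasmin dissolves the clot. In complement, the lectin, classical and alternative pathways converge on C3 and end in the membrane attack complex, a pore that C5b to C9 form in a target membrane. Several of these proteins, fibrinogen among them, belong to the acute phase reactants, whose synthesis in liver is driven by interleukin-6 through STAT3.

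Values are log2 expression after RMA, and they were compared with limma. A gene was called changed when B, the log odds that it differed, was over 0, and p-values were adjusted with the Benjamini-Hochberg method over all probe sets kept. The arrays had medians between 7.70 and 7.77. Insulin glargine replicate 3 stood apart, with a mean correlation of 0.985 to the arrays of other groups and 0.990 to its own. The mean of 6 hepatocyte markers lay between 14.45 and 14.59 in all 12 arrays. A level in whole liver cannot tell fewer cells of a type from less RNA per cell.

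Of the 37 genes, 7 were called in at least 1 of the 6 comparisons, and 30 in none. Serpina10, Fga and Fgg rose after Albulin relative to saline, 3 genes higher and 0 lower, while 1.37% of all probe sets tested were called higher and 1.04% lower. Serpina10, Fga, Mbl1 and C8a rose after Insulin-Apo relative to saline, 4 genes higher and 0 lower, beside 1.34% and 0.804% of all probe sets. Serpinf2 fell after insulin glargine relative to saline, with 0 genes higher and 1 lower, beside 2.24% and 2.6% of all probe sets, and 1 lower gene of 37 is a share near that of all probe sets. The comparisons with saline share the same 3 saline arrays, so their counts are not independent of each other.

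**Figure D1:**
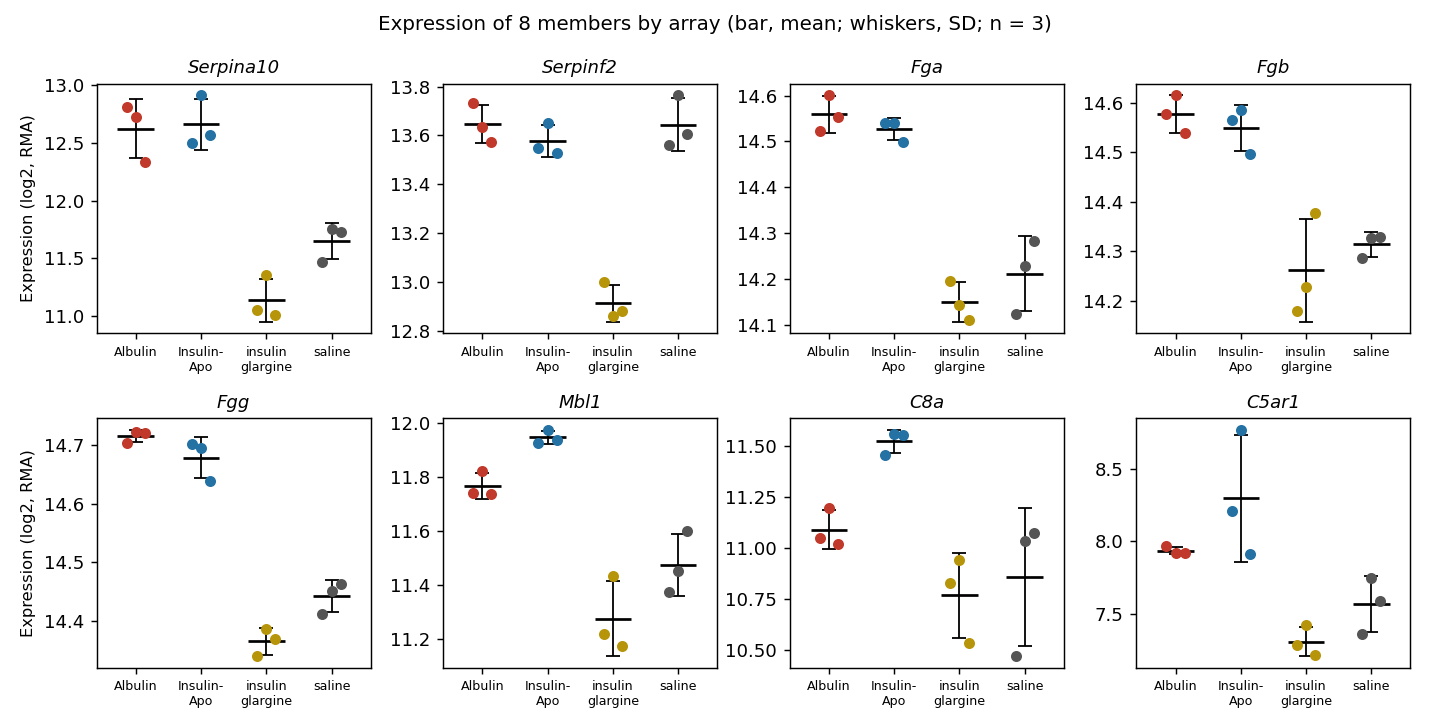
Log2 expression (RMA) of 8 genes in each of the 12 arrays, with points for arrays, a bar for the group mean and whiskers for the SD (n = 3); each panel has its own vertical axis, which does not start at 0. The 6 fusion protein arrays of Serpina10 lie between 12.34 and 12.92, above all saline arrays, and the insulin glargine arrays of Serpinf2 lie between 12.86 and 12.999, below all other arrays.

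On the probe sets used, the largest called change relative to saline belonged to an inhibitor of coagulation, although a second probe set of Fga, given below, changed more. Serpina10 encodes the protein Z-dependent protease inhibitor, a serpin that blocks activated factor X with protein Z as its cofactor. Its expression was 12.82, 12.72 and 12.34 in Albulin livers, 12.50, 12.92 and 12.57 in Insulin-Apo livers and 11.05, 11.35 and 11.01 in insulin glargine livers, against 11.47, 11.75 and 11.73 in saline livers. All 6 fusion protein arrays lay above the saline arrays, and all 3 insulin glargine arrays lay below them. Serpina10 rose 1.97-fold after Albulin (log2 change of 0.98, SE 0.14, limma adjusted p = 0.00401). It rose 2.02-fold after Insulin-Apo (log2 change of 1.01, SE 0.14, limma adjusted p = 0.00471). After insulin glargine the log2 difference from saline was −0.51 with a limma adjusted p of 0.0424, but B was under 0, so it was not called. Both fusion proteins gave higher levels than insulin glargine, by 1.49 for Albulin and 1.52 for Insulin-Apo on the log2 scale (limma adjusted p = 7.33e-05 and 6.86e-05). Albulin and Insulin-Apo differed by −0.04, with a 95% interval from −0.35 to 0.27. Each of the 4 calls held under all alternatives that were run.

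Proz, the gene of protein Z, to which that inhibitor binds, had 11.82, 11.84 and 11.57 in Albulin livers, 11.56, 11.77 and 11.71 in Insulin-Apo livers and 11.38, 10.97 and 10.54 in insulin glargine livers, against 11.51, 11.91 and 11.76 in saline livers. The insulin glargine arrays lay below all others. The log2 differences from saline were 0.02 after Albulin, −0.04 after Insulin-Apo and −0.76 after insulin glargine. The last had a limma adjusted p of 0.013 and was not called by B, but it was called when insulin glargine replicate 1 was left out. In the livers where Serpina10 rose, the 95% interval of the Proz difference from saline was −0.22 to 0.26 for Albulin and −0.28 to 0.20 for Insulin-Apo.

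Serpinf2, which encodes α2-antiplasmin, the main inhibitor of plasmin, fell after insulin glargine. Its expression was 13.73, 13.63 and 13.58 in Albulin livers, 13.55, 13.65 and 13.53 in Insulin-Apo livers and 12.999, 12.86 and 12.88 in insulin glargine livers, against 13.56, 13.77 and 13.61 in saline livers. The fusion protein arrays overlapped the saline arrays. The insulin glargine level was 0.602 times the saline level (log2 change of −0.73, SE 0.08, limma adjusted p = 0.00013), and this call held without any 1 array. Serpinf2 was higher after Albulin than after insulin glargine by 0.73, and after Insulin-Apo by 0.66, on the log2 scale (limma adjusted p = 0.000112 and 0.000205).

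The other serpins were not called in any comparison. Serpinc1 (antithrombin) differed from saline by 0.04, 0.03 and −0.09 after Albulin, Insulin-Apo and insulin glargine on the log2 scale. Serpind1, the gene of heparin cofactor II, which inhibits thrombin, differed by −0.08, −0.13 and −0.23 in the same order. Serping1, which encodes the C1 inhibitor of complement and of the contact system, differed by 0.03, 0.01 and −0.16.

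The 3 fibrinogen chains were higher after both fusion proteins in every array. Fga, the gene of the α chain, had 14.52, 14.60 and 14.55 in Albulin livers, 14.54, 14.54 and 14.50 in Insulin-Apo livers and 14.20, 14.14 and 14.11 in insulin glargine livers, against 14.12, 14.23 and 14.28 in saline livers. The rise after Albulin was 0.35 on the log2 scale (SE 0.06, limma adjusted p = 0.0122) and that after Insulin-Apo was 0.32 (SE 0.06, limma adjusted p = 0.0231). Fgg, the gene of the γ chain, had 14.70, 14.72 and 14.72 in Albulin livers, 14.70, 14.69 and 14.64 in Insulin-Apo livers and 14.34, 14.39 and 14.37 in insulin glargine livers, against 14.41, 14.45 and 14.46 in saline livers. The rise after Albulin was 0.27 on the log2 scale (SE 0.06, limma adjusted p = 0.0218). After Insulin-Apo its difference of 0.24 was not called (limma adjusted p = 0.0445). Fgb, the gene of the β chain, had 14.58, 14.62 and 14.54 in Albulin livers, 14.57, 14.59 and 14.50 in Insulin-Apo livers and 14.18, 14.23 and 14.38 in insulin glargine livers, against 14.29, 14.33 and 14.33 in saline livers. Its differences from saline of 0.26 and 0.23 after the fusion proteins were not called (limma adjusted p = 0.0304 and 0.0536).

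These calls were close to the threshold. The call of Fgg after Albulin was lost without any 1 of the 9 arrays of its fit (log2 changes of 0.26 to 0.28, limma adjusted p from 0.0269 to 0.0732). The call of Fga after Albulin was lost without Albulin replicate 2 or 3 or saline replicate 1 or 2, and the call after Insulin-Apo without any array but Albulin replicate 2 and saline replicate 3. The log2 changes in those fits were 0.30 to 0.36 after Albulin and 0.27 to 0.33 after Insulin-Apo. Against insulin glargine, Fga was higher by 0.41 after Albulin and 0.38 after Insulin-Apo on the log2 scale, and Fgg by 0.35 and 0.31, and all 4 differences were called (limma adjusted p from 0.00161 to 0.00394). The last of them was lost without Insulin-Apo replicate 1 or 2 or insulin glargine replicate 1 (limma adjusted p from 0.0155 to 0.02). After insulin glargine the chains differed from saline by −0.06 for Fga, −0.05 for Fgb and −0.08 for Fgg.

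The fibrinogen genes sit side by side on chromosome 3, in the order Fgg, Fga, Fgb, with no protein-coding gene between them. Their values are near the top of the array. The values of Fga lay 0.35 to 0.89 below the highest value of the same array, those of Fgb 0.34 to 0.78 and those of Fgg 0.21 to 0.63, on the log2 scale.

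A second probe set of Fga gave a different size of change. It is annotated with the same RefSeq transcripts as the one used, and it read 12.60, 12.40 and 11.97 in Albulin livers, 11.83, 11.82 and 11.27 in Insulin-Apo livers and 9.83, 9.93 and 10.98 in insulin glargine livers, against 10.06, 10.50 and 10.46 in saline livers. The fusion protein arrays lay above all saline and insulin glargine arrays. There Fga rose 3.95-fold after Albulin (log2 change of 1.98, SE 0.19, limma adjusted p = 0.000476) and 2.46-fold after Insulin-Apo (log2 change of 1.30, SE 0.19, limma adjusted p = 0.00489). Albulin and Insulin-Apo differed there by 0.68, which was not called (limma adjusted p = 0.166). For the mean of the 2 probe sets, the log2 changes were 1.16 with Albulin and 0.81 with Insulin-Apo. The direction was thus the same on both, and the size of the change in Fga was not settled by these arrays.

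**Figure D2:**
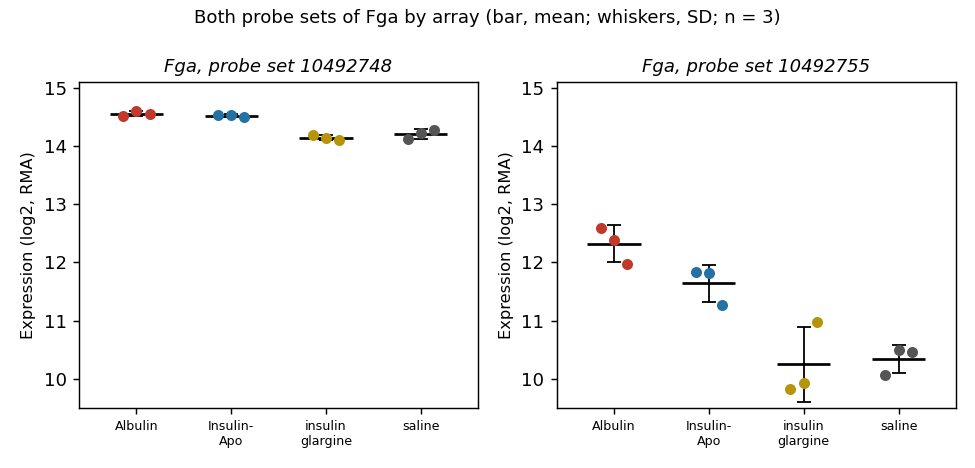
Log2 expression (RMA) of the 2 Fga probe sets in each array on a common vertical axis that does not start at 0, with points for arrays, a bar for the group mean and whiskers for the SD (n = 3). The probe set used lies between 14.11 and 14.60 in all arrays, while the other spans 9.83 to 12.60 and separates the 6 fusion protein arrays from the rest.

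F13b, the carrier subunit of the transglutaminase factor XIII that cross-links fibrin, did not move with the fibrinogen chains. Its expression was 12.07, 12.13 and 12.03 in Albulin livers, 12.10, 11.84 and 12.21 in Insulin-Apo livers and 12.07, 12.02 and 11.26 in insulin glargine livers, against 12.18, 12.37 and 12.41 in saline livers. Its log2 differences of −0.25, −0.27 and −0.54 were not called (limma adjusted p of 0.201, 0.167 and 0.0709). Without insulin glargine replicate 3, the last became −0.28, and without Insulin-Apo replicate 2, that after Insulin-Apo became −0.17.

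The promoters of the genes that were called against saline are given next, so that their letters can be set beside the changes. Each window runs from 250 bases before to 50 bases after the transcription start in RefSeq (GRCm38.p6), and 28 of the 37 genes had such a window that could be searched. Serpina10 had no entry. Capitals mark matches to the letters TTCNNNGAA or TTCNNGAA (STAT), TTNNGNAAT or TTGCNNAA (C/EBP) and the HNF1 motif, searched on both strands.
Fga (chr3:83025903-83026202, plus strand): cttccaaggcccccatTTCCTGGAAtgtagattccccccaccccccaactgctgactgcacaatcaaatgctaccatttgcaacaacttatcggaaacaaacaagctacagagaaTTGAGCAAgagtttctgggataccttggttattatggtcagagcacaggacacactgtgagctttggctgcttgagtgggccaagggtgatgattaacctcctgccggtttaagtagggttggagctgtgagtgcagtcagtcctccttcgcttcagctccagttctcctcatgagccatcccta
Fgg (chr3:83007474-83007773, plus strand): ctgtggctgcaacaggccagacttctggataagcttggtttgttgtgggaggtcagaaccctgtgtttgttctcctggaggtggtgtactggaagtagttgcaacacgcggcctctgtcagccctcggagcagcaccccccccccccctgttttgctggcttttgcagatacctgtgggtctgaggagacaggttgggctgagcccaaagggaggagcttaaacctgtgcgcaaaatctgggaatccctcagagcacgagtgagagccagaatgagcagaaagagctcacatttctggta
Serpinf2 (chr11:75439452-75439751, minus strand): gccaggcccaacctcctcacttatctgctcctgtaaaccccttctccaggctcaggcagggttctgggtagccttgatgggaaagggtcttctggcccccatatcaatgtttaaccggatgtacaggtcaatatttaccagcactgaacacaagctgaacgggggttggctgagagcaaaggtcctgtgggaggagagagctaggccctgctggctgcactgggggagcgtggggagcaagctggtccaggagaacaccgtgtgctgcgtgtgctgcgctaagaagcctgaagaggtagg
C8a (chr4:104876349-104876648, minus strand): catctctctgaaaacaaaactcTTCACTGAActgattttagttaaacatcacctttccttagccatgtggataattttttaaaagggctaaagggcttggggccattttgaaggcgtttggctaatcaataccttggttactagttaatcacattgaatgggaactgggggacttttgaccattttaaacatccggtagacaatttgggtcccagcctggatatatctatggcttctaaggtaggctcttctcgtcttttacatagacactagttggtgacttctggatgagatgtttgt
Mbl1 (chr14:41151206-41151505, plus strand): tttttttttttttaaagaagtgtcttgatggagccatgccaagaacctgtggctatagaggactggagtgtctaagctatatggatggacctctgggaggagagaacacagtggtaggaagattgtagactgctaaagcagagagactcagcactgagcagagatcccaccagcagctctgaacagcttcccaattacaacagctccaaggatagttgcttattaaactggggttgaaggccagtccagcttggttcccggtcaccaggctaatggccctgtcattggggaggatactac

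The Fga window held a STAT letter match at −234 to −226 from the start and a C/EBP match at −135 to −128. The C8a window held a STAT match at −228 to −220. No motif was matched in the windows of Fgg, Serpinf2 and Mbl1. Among the 28 genes, 7 (25.0%) held TTCNNNGAA, against 8.3% of all 32851 promoters, and they were C8a, F9, Fga, Fgb, Hgfac, Masp2 and Pros1. Fga differed from saline by 0.35 and 0.32 on the log2 scale after Albulin and Insulin-Apo, and Fgb by 0.26 and 0.23. In the same order C8a differed by 0.23 and 0.66, Hgfac by −0.14 and −0.31 and Masp2 by −0.17 and −0.17. F9 differed by 0.09 and 0.00 and Pros1 by 0.10 and −0.08. Of these, Fga was called after both and C8a after Insulin-Apo, and the others were not called. Mbl1 rose after Insulin-Apo with no match in its window. Whether the matches bear on these differences was not tested. TTCNNGAA was in 3 (10.7%) against 8.5%, TTNNGNAAT in 5 (17.9%) against 11.5%, TTGCNNAA in 6 (21.4%) against 10.8% and the HNF1 motif in 3 (10.7%) against 0.4%. In Fgb the TTCNNGAA match overlapped the TTNNGNAAT match, and in C9 the C/EBP forms overlapped each other. These matches describe the letters and do not show binding.

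The vitamin K-dependent factors, proteases and cofactors that bind membranes through carboxylated glutamates, were not called in any comparison. F2, the gene of prothrombin, had 13.84, 13.82 and 13.81 in Albulin livers, 13.81, 13.73 and 13.84 in Insulin-Apo livers and 13.75, 13.77 and 13.79 in insulin glargine livers, against 13.83, 13.87 and 13.84 in saline livers. The insulin glargine arrays lay just below the saline arrays, and the log2 difference was −0.07 with an interval of −0.20 to 0.06. F7, which starts coagulation with tissue factor, had 10.98, 10.82 and 10.81 in Albulin livers, 10.69, 10.76 and 11.06 in Insulin-Apo livers and 10.79, 10.57 and 10.35 in insulin glargine livers, against 11.09, 11.33 and 10.92 in saline livers. All insulin glargine arrays of F7 lay below the saline arrays, with a log2 difference of −0.54 (limma adjusted p = 0.0197, not called).

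F10, the gene of factor X that forms thrombin, differed from saline by 0.03, 0.06 and −0.22 after Albulin, Insulin-Apo and insulin glargine on the log2 scale. F9, the gene of factor IX, differed by 0.09, 0.00 and −0.01. Proc, the gene of the anticoagulant protein C, differed by −0.08, −0.13 and −0.23, and its insulin glargine difference had a limma adjusted p of 0.0413. Pros1, the gene of protein S, the cofactor of protein C, differed by 0.10, −0.08 and −0.22. F7, F10 and Proz lie next to each other on chromosome 8, and like 36 of the 37 genes they had negative differences after insulin glargine.

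Among the cofactors and the contact system, which starts coagulation on charged surfaces, F11 stood furthest from saline after Albulin. F11, the gene of factor XI, had 9.89, 9.91 and 9.70 in Albulin livers, 10.39, 10.04 and 10.18 in Insulin-Apo livers and 9.94, 10.15 and 10.45 in insulin glargine livers, against 10.07, 10.49 and 10.56 in saline livers. The Albulin arrays lay below the saline arrays, with a log2 difference of −0.54 (limma adjusted p = 0.0407, not called). F12, the gene of factor XII, differed from saline by −0.06, −0.15 and −0.01 on the log2 scale after Albulin, Insulin-Apo and insulin glargine. Kng1, the gene of kininogen, the source of bradykinin, differed by 0.03, 0.03 and −0.03. F5, which encodes the cofactor of factor X, differed by −0.05, −0.15 and −0.09. F8, the cofactor of factor IX, which is made mainly by endothelial cells, differed by 0.15, 0.15 and −0.05.

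Plg, the gene of plasminogen, differed from saline by −0.01, −0.07 and −0.11 on the log2 scale after the 3 compounds. Hgfac encodes a protease that activates hepatocyte growth factor, and its expression was 11.85, 11.77 and 11.75 in Albulin livers, 11.67, 11.41 and 11.76 in Insulin-Apo livers and 11.77, 11.65 and 11.87 in insulin glargine livers, against 11.94, 11.996 and 11.84 in saline livers. The Insulin-Apo arrays lay below the saline arrays (log2 difference of −0.31, limma adjusted p = 0.0824, not called).

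**Figure D3:**
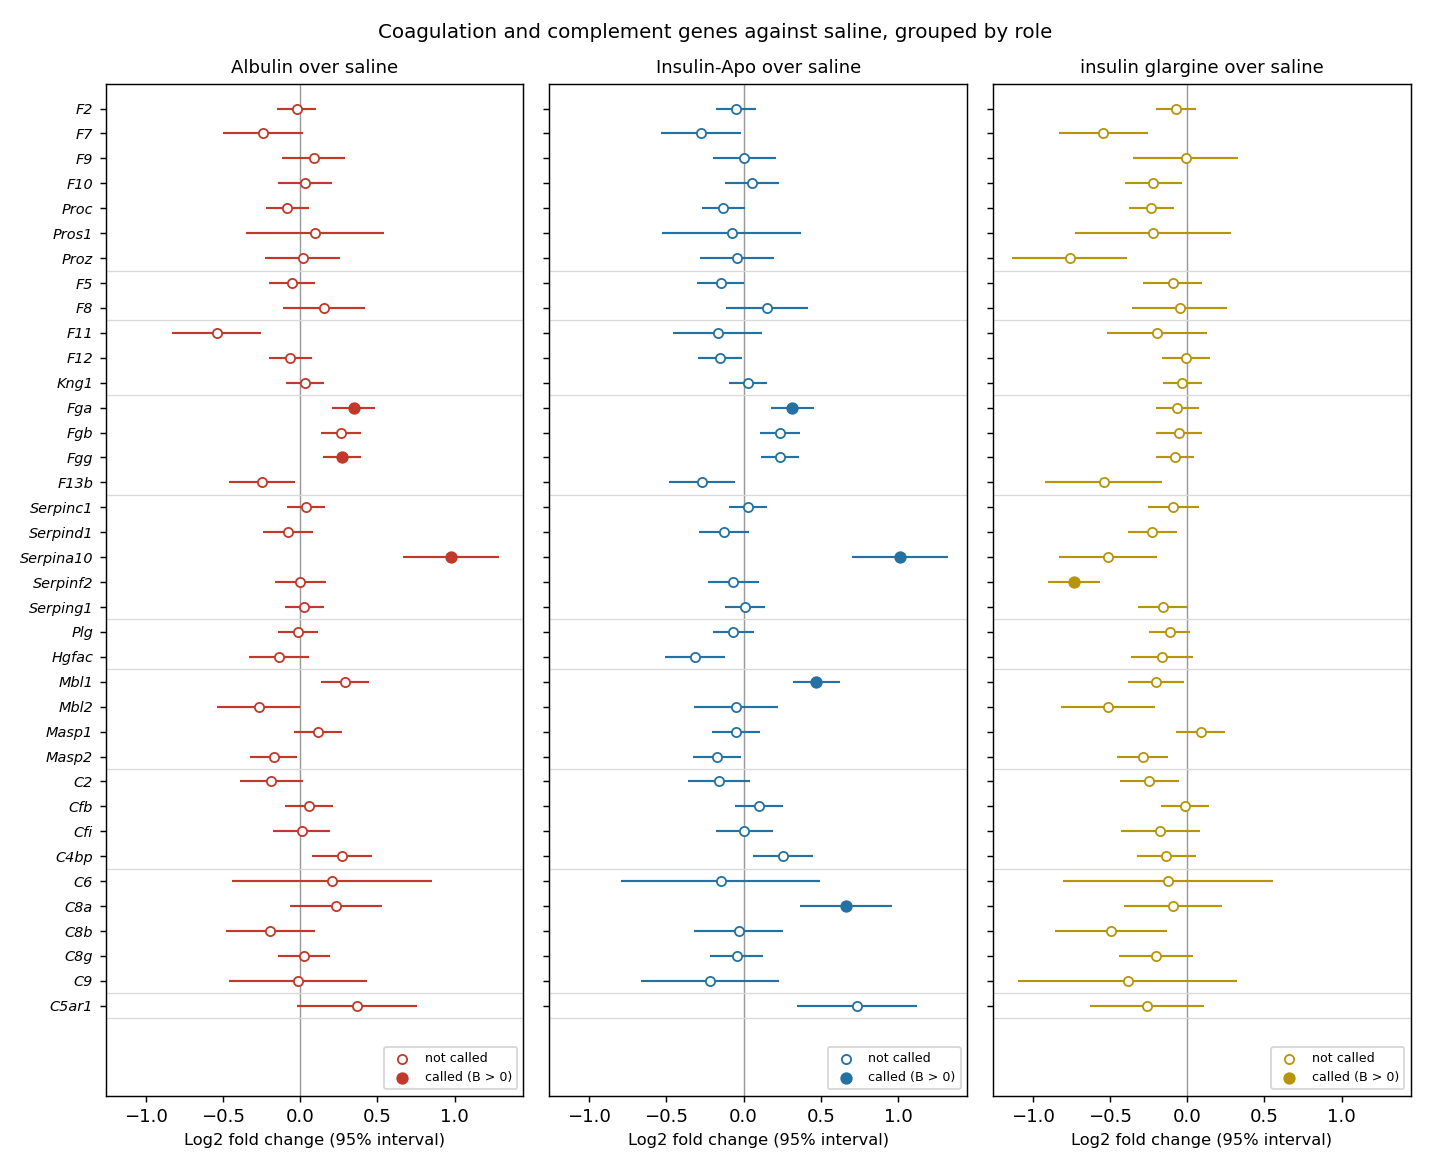
Log2 fold change (points) with its 95% interval (lines) of the 37 genes after Albulin, Insulin-Apo and insulin glargine over saline, grouped by role from vitamin K-dependent factors at the top to the C5a receptor at the bottom. Filled points are called (B > 0), 3 after Albulin, 4 after Insulin-Apo and 1 after insulin glargine, and 36 of 37 points lie below 0 after insulin glargine.

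In the lectin pathway, in which collectins bind sugars on microbes and activate complement through the MASP proteases, the 2 mannose-binding lectins differed from each other. Mbl1, the gene of mannose-binding lectin A, had 11.74, 11.82 and 11.74 in Albulin livers, 11.93, 11.98 and 11.94 in Insulin-Apo livers and 11.22, 11.44 and 11.17 in insulin glargine livers, against 11.38, 11.45 and 11.60 in saline livers. All fusion protein arrays lay above the saline arrays. Mbl1 rose by 0.47 on the log2 scale after Insulin-Apo (SE 0.07, limma adjusted p = 0.00575), and the difference of 0.29 after Albulin was not called (limma adjusted p = 0.0402). It was higher than after insulin glargine by 0.49 for Albulin and 0.67 for Insulin-Apo on the log2 scale (limma adjusted p = 0.00259 and 0.000305). The difference between Albulin and Insulin-Apo, −0.18 with an interval of −0.33 to −0.03, was not called (limma adjusted p = 0.30).

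Mbl2, the gene of mannose-binding lectin C, had 11.42, 11.14 and 11.54 in Albulin livers, 11.38, 11.62 and 11.76 in Insulin-Apo livers and 11.10, 10.91 and 11.37 in insulin glargine livers, against 11.80, 11.59 and 11.51 in saline livers. The insulin glargine arrays lay below the saline arrays (log2 difference of −0.51, limma adjusted p = 0.0344, not called), and the fusion protein differences were −0.27 and −0.05. Masp2, the protease that cleaves C4 and C2, differed from saline by −0.17, −0.17 and −0.29 on the log2 scale after Albulin, Insulin-Apo and insulin glargine. The last had a limma adjusted p of 0.0271. Masp1, the protease that activates it, differed by 0.12, −0.05 and 0.09, and it was the gene with a positive difference after insulin glargine.

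The components and regulators of the convertases were not called. C2 and Cfb, neighbours on chromosome 17 that encode the proteases of the classical and alternative convertases, differed from saline by −0.19, −0.16 and −0.24 for C2 and by 0.06, 0.10 and −0.01 for Cfb on the log2 scale. Cfi, the protease that inactivates C3b and C4b, differed by 0.01, 0.01 and −0.17. C4bp, the C4b-binding protein that serves as its cofactor, had 13.41, 13.43 and 13.24 in Albulin livers, 13.33, 13.40 and 13.30 in Insulin-Apo livers and 12.89, 13.03 and 12.95 in insulin glargine livers, against 12.92, 13.14 and 13.22 in saline livers. All fusion protein arrays of C4bp lay above the saline arrays, with log2 differences of 0.27 and 0.25 that were not called (limma adjusted p = 0.119 and 0.151).

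Of the membrane attack complex, C8a changed and its neighbour C8b was not called. C8a, the gene of the α chain of C8, had 11.05, 11.20 and 11.02 in Albulin livers, 11.46, 11.56 and 11.55 in Insulin-Apo livers and 10.83, 10.94 and 10.54 in insulin glargine livers, against 10.47, 11.04 and 11.07 in saline livers. The Insulin-Apo arrays lay above all others, and the saline replicates spread more for C8a than for any other of the 37 genes (SD 0.34). C8a rose 1.58-fold after Insulin-Apo relative to saline (log2 change of 0.66, SE 0.14, limma adjusted p = 0.0245). This call was lost without any 1 Albulin or Insulin-Apo array (log2 changes of 0.65 to 0.70, limma adjusted p from 0.0347 to 0.0716), and also with quantile normalization repeated, with all 12 arrays in the fit and with the Insulin-Apo and saline arrays alone. Relative to insulin glargine it was higher after Insulin-Apo by 0.75 on the log2 scale (SE 0.15, limma adjusted p = 0.00559). That call was lost without any 1 Insulin-Apo array or insulin glargine replicate 1 or 3 (limma adjusted p from 0.0132 to 0.0242). The Albulin minus Insulin-Apo difference of C8a was −0.43 with no overlap of the arrays, and it was not called (interval of −0.73 to −0.13, limma adjusted p = 0.208).

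C8b, the gene of the β chain, lies beside C8a on chromosome 4, and it had 12.49, 12.49 and 12.47 in Albulin livers, 12.77, 12.37 and 12.79 in Insulin-Apo livers and 12.32, 12.43 and 11.79 in insulin glargine livers, against 12.39, 12.80 and 12.83 in saline livers. The Insulin-Apo and saline arrays of C8b overlapped, with a log2 difference of −0.03 and an interval of −0.32 to 0.26. C8g, the gene of the γ chain, differed from saline by 0.03, −0.04 and −0.20 after the 3 compounds on the log2 scale.

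C6 and C9 had the largest SDs among replicates, 0.76 for C6 after Insulin-Apo and 0.81 for C9 after insulin glargine. C9, the pore-forming subunit, had 12.40, 12.31 and 12.28 in Albulin livers, 12.37, 11.53 and 12.48 in Insulin-Apo livers and 12.37, 12.48 and 11.03 in insulin glargine livers, against 12.13, 12.37 and 12.54 in saline livers. A single array was low in each of 2 groups, Insulin-Apo replicate 2 and insulin glargine replicate 3. C6, which joins C5b and C7 in the assembling pore, had 9.20, 9.67 and 9.57 in Albulin livers, 9.67, 8.25 and 9.46 in Insulin-Apo livers and 9.04, 9.65 and 8.77 in insulin glargine livers, against 9.10, 9.28 and 9.44 in saline livers. The same Insulin-Apo array was the lowest of all 12 for C6. The log2 differences from saline were −0.01, −0.22 and −0.38 for C9 and 0.21, −0.15 and −0.12 for C6, all with intervals that held 0. The signs of both genes after Insulin-Apo, and of C9 after insulin glargine, each rested on 1 array. For C6, insulin glargine replicates 1 and 3 lay below all saline arrays and replicate 2 lay above them. Without Insulin-Apo replicate 2, the differences after Insulin-Apo became 0.08 for C9 and 0.29 for C6. Without insulin glargine replicate 3, those after insulin glargine became 0.08 for C9 and 0.07 for C6.

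C5ar1 encodes the receptor of the anaphylatoxin C5a on neutrophils and macrophages. It had 7.97, 7.92 and 7.92 in Albulin livers, 8.21, 8.77 and 7.91 in Insulin-Apo livers and 7.28, 7.42 and 7.22 in insulin glargine livers, against 7.36, 7.75 and 7.59 in saline livers. The fusion protein arrays lay above all saline and insulin glargine arrays, and Insulin-Apo replicate 2 was the highest. C5ar1 was higher after Insulin-Apo than after insulin glargine by 0.99 on the log2 scale (SE 0.17, limma adjusted p = 0.00279). Relative to saline, the differences of 0.73 after Insulin-Apo (limma adjusted p = 0.0457) and 0.37 after Albulin (limma adjusted p = 0.303) were not called.

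Markers of myeloid cells also differed between the groups. The mean of 9 macrophage markers was 10.28 to 10.44 after Albulin, 10.37 to 10.75 after Insulin-Apo and 9.57 to 10.27 after insulin glargine, against 10.06 to 10.30 in saline livers. Relative to insulin glargine, 1 of the 9 was called higher after Albulin and 3 after Insulin-Apo, beside 2.35% and 2.88% of all probe sets. Against saline, 2 of these macrophage markers were called higher with Insulin-Apo and 0 with Albulin, beside 1.34% and 1.37% of all probe sets. The mean of 9 neutrophil markers was 7.48 to 7.59 after Albulin, 7.30 to 7.51 after Insulin-Apo and 6.79 to 6.96 after insulin glargine, against 6.93 to 7.17 in saline livers. Relative to insulin glargine, 6 of the 9 were called higher after Albulin and 4 after Insulin-Apo, and relative to saline 3 after Albulin and 0 after Insulin-Apo. Relative to saline, C5ar1 was not called after either fusion protein. Relative to insulin glargine it was called after Insulin-Apo, and its log2 difference of 0.63 after Albulin was not called (limma adjusted p = 0.0367). Insulin-Apo replicate 2, the highest for C5ar1, had the lowest macrophage mean of its group at 10.37, against 10.75 and 10.52, and the highest neutrophil mean at 7.51, against 7.39 and 7.30. The part of these cells in the difference of C5ar1 was not tested.

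Albulin and Insulin-Apo were given at the same dose and time, and 0 of the 37 genes were called between them by limma with B over 0. In this comparison 0.25% of all probe sets were called higher and 0.389% lower, and at an unadjusted p under 0.05, 1 of the 37 genes was higher and 3 were lower, beside 6.44% and 7.11% of all probe sets. The lowest adjusted p was 0.208. Of the 37 log2 differences, 31 lay within 0.2 of 0, and their 95% intervals reached a median of 0.18 to either side. C8a was called lower after Albulin without saline replicate 1, and when the Albulin and Insulin-Apo arrays alone were fitted.

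Relative to insulin glargine, 5 genes were higher after Albulin and 7 after Insulin-Apo, and 0 were lower. Of all probe sets, 2.35% were called higher and 2.01% lower after Albulin than after insulin glargine, and 2.88% higher and 1.96% lower after Insulin-Apo. Serpina10, Serpinf2, Fga, Fgg and Mbl1 were called in both comparisons, and C5ar1 and C8a after Insulin-Apo. These comparisons share the insulin glargine arrays.

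Insulin glargine livers had lower values over most of the set. Of the 37 genes, 36 had a negative log2 difference from saline and 1 a positive one, and their median was −0.17, while the median of all probe sets was −0.00. After Albulin 22 differences were positive and 15 negative, with a median of 0.03 beside 0.00 for all probe sets, and after Insulin-Apo 16 were positive and 21 negative, with a median of −0.04 beside −0.02. With calls made by an adjusted p under 0.05 instead, 7 genes were lower and 0 higher after insulin glargine (F7, Proc, Proz, Serpinf2, Serpina10, Masp2 and Mbl2), where 5.86% of all probe sets were lower and 5.08% higher. By the same rule 5 genes were higher and 1 lower after Albulin (2.42% and 2.27% of all probe sets), and 6 were higher and 0 lower after Insulin-Apo (2.18% and 1.55%).

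The 3 insulin glargine arrays were not alike. The median of the 37 genes lay below the saline mean by −0.15, −0.07 and −0.30 in insulin glargine replicates 1, 2 and 3, with 31, 29 and 32 genes below it. The number of genes more than 0.5 below the saline mean was 3, 4 and 9 in the same order, and C9 at −1.32 was the lowest value, in replicate 3. Without replicate 3 the median difference from saline was −0.11, with 29 genes negative and 8 positive, and the median difference from insulin glargine became 0.11 after Albulin and 0.08 after Insulin-Apo in place of 0.23 and 0.16. With replicate 1 or 2 left out instead, 34 genes were negative and 3 positive. Leaving replicate 3 out moved the difference from saline of 19 of the 37 genes by over 1.5 times and turned the sign of 7. Some of these differences were close to 0, as for Serpinc1 with 0.00 in place of −0.09. Pros1 became −0.01 in place of −0.22, Cfi −0.02 in place of −0.17, C8b −0.30 in place of −0.49 and F9 0.21 in place of −0.01. Leaving out Insulin-Apo replicate 2 moved 19 genes by over 1.5 times in its group and turned the sign of 7, among them Pros1 with 0.17 in place of −0.08. None of these differences was called in the fit with all arrays. Moves by over 1.5 times were counted for insulin glargine replicate 3 and Insulin-Apo replicate 2 only, so their weight was not set against that of other arrays. Serpinf2 was low in all 3 insulin glargine arrays. The saline replicates lay at −0.08, 0.04 and 0.02 around their own mean. Those of Albulin lay at 0.04, 0.02 and −0.02, and those of Insulin-Apo at 0.01, −0.10 and 0.07. In saline replicates 1, 2 and 3, 30, 5 and 14 of the 37 genes lay below the saline mean. For Albulin the counts were 14, 18 and 21, and for Insulin-Apo 18, 23 and 15. Saline replicate 1 alone thus had a count like those of the insulin glargine arrays.

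**Figure D4:**
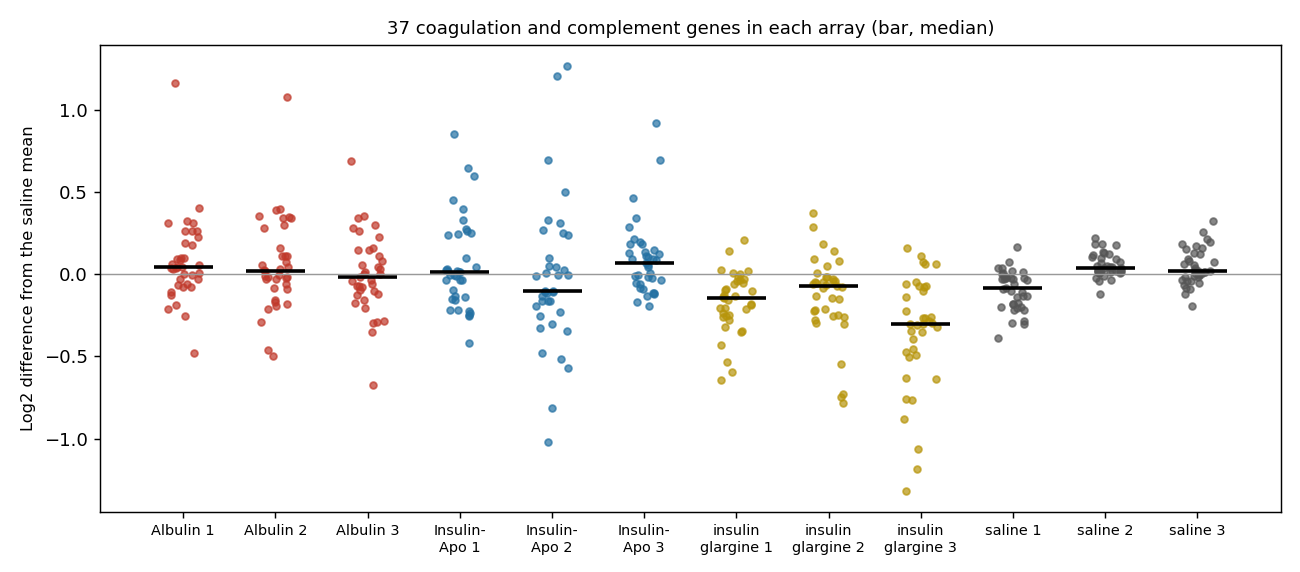
Log2 difference of each of the 37 genes from its saline mean (points) in each of the 12 arrays, with a bar for the median. The median lies at −0.15, −0.07 and −0.30 in the insulin glargine arrays and between −0.10 and 0.07 in the other 9 arrays, and insulin glargine replicate 3 has 9 genes more than 0.5 below the saline mean.

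Other genes of the same pathways were counted in lists fixed by name. Of 29 other genes of coagulation, fibrinolysis and anticoagulation, 2 rose and 0 fell after Albulin (F13a1 and Gas6), 2 rose and 0 fell after Insulin-Apo (Fgl1 and Gas6), and 1 rose and 1 fell after insulin glargine (Thbd and Vkorc1). Of all probe sets, 1.37% were called higher and 1.04% lower after Albulin, and 1.34% and 0.804% after Insulin-Apo. After insulin glargine the shares were 2.24% and 2.6%, and counts of 1 in a list of this size are near them. Thbd encodes thrombomodulin, the endothelial receptor with which thrombin activates protein C. It had 8.43, 8.34 and 8.37 in Albulin livers, 7.91, 7.91 and 8.03 in Insulin-Apo livers and 10.13, 10.01 and 9.86 in insulin glargine livers, against 8.07, 7.95 and 8.13 in saline livers. It rose 3.86-fold after insulin glargine (log2 change of 1.95, SE 0.08, limma adjusted p = 1.94e-07). Its log2 levels after insulin glargine exceeded those after Albulin and Insulin-Apo too, with fusion protein minus insulin glargine differences of −1.62 and −2.05.

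Gas6, a vitamin K-dependent ligand of the receptors Tyro3, Axl and Mer, had 11.36, 10.91 and 10.74 in Albulin livers, 10.95, 11.67 and 11.10 in Insulin-Apo livers and 9.68, 9.62 and 10.02 in insulin glargine livers, against 10.05, 9.95 and 9.99 in saline livers. All fusion protein arrays lay above the rest, and its log2 changes were 1.01 with Albulin and 1.24 with Insulin-Apo (limma adjusted p = 0.0127 and 0.00576). Vkorc1, which recycles the vitamin K that carboxylation consumes, fell by 0.59 on the log2 scale after insulin glargine (SE 0.08, limma adjusted p = 0.000526). F13a1, the catalytic subunit of factor XIII, made mainly by macrophages and megakaryocytes, rose by 0.60 after Albulin, and Fgl1, a fibrinogen-like protein of hepatocytes, rose by 0.41 after Insulin-Apo. The Albulin arrays of Fgl1, at 13.88, 13.83 and 13.79, also lay above the saline arrays, at 13.31, 13.55 and 13.60, but it was not called there.

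The medians of these 29 genes were 0.03, 0.04 and −0.05 after Albulin, Insulin-Apo and insulin glargine relative to saline, beside 0.00, −0.02 and −0.00 for all probe sets.

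Of 28 other complement genes, 0 were called after either fusion protein relative to saline (limma), while an unadjusted p under 0.05 was reached by 7 genes after Albulin and 6 after Insulin-Apo, all higher, beside 8.98% of all probe sets higher and 9.08% lower after Albulin and 9.13% and 8.28% after Insulin-Apo. After insulin glargine 0 rose and 3 fell, beside 2.24% and 2.6% of all probe sets, with a median of −0.07. They were C3ar1, the C3a receptor, at −0.97, C1rl, a protease related to C1r, at −0.65, and Cpn2, the regulatory subunit of the carboxypeptidase that inactivates anaphylatoxins, at −0.51 on the log2 scale (limma adjusted p = 0.00137, 0.00839 and 0.00873). C3ar1 had 9.25, 9.16 and 9.09 in Albulin livers and 8.28, 8.62 and 7.85 in insulin glargine livers, against 9.15, 9.17 and 9.35 in saline livers. Like C5ar1 it is a receptor of myeloid cells, whose markers were given above.

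Of 22 regulators of liver secretory genes, 4 rose and 2 fell after Albulin, 3 rose and 1 fell after Insulin-Apo, and 0 rose and 1 fell after insulin glargine. Of all probe sets, 1.37% were called higher and 1.04% lower after Albulin, and 1.34% and 0.804% after Insulin-Apo. After insulin glargine the shares were 2.24% and 2.6%, and a count of 1 in a list of this size is near them. Socs3, a feedback inhibitor that STAT3 induces, had 11.48, 11.30 and 10.67 in Albulin livers, 10.38, 11.47 and 10.12 in Insulin-Apo livers and 8.90, 8.85 and 8.89 in insulin glargine livers, against 8.80, 8.92 and 8.59 in saline livers. It rose 5.20-fold after Albulin and 3.70-fold after Insulin-Apo (limma adjusted p = 0.00198 and 0.00788). Stat3, the transcription factor of interleukin-6 signalling, had 12.66, 12.57 and 12.47 in Albulin livers, 12.35, 12.35 and 12.30 in Insulin-Apo livers and 11.61, 11.77 and 11.85 in insulin glargine livers, against 11.73, 11.75 and 11.93 in saline livers. Its log2 changes from saline were 0.76 with Albulin and 0.53 with Insulin-Apo (limma adjusted p = 0.000577 and 0.00482). Tnfrsf1a, a receptor of tumour necrosis factor, also rose after both fusion proteins, by 0.89 with Albulin and 0.60 with Insulin-Apo on the log2 scale. Its insulin glargine arrays, at 10.95, 10.84 and 11.27, also lay above the saline arrays, at 10.75, 10.73 and 10.46, but it was not called there. Jak1, the kinase upstream of STAT3, rose by 0.39 with Albulin. Nr1i3 (the nuclear receptor CAR) fell by 0.76 with Albulin, and its differences of −0.73 after Insulin-Apo and −0.78 after insulin glargine were about as large but not called (limma adjusted p = 0.0263 and 0.0202). Nr1h4 (the bile acid receptor FXR) fell by 0.44 with Insulin-Apo, and its differences of −0.28 after Albulin and −0.51 after insulin glargine were not called (limma adjusted p = 0.0845 and 0.0159). Foxa3, a hepatocyte transcription factor, fell by 0.57 after Albulin and by 0.57 after insulin glargine, and differed by −0.08 after Insulin-Apo. The medians of the 22 regulators were 0.12, −0.08 and −0.03 after Albulin, Insulin-Apo and insulin glargine relative to saline. Whether these changes bear on those of the coagulation and complement genes was not tested.

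Further genes of these lists were called between the compounds. Relative to insulin glargine, the carboxylase gene Ggcx was higher after Albulin by 0.45 on the log2 scale, Tfpi2, a protease inhibitor, was higher after Insulin-Apo by 0.71, and Vkorc1 was higher by 0.44 after Albulin and 0.53 after Insulin-Apo. Gas6 was higher than after insulin glargine by 1.23 for Albulin and 1.46 for Insulin-Apo. F13a1 was higher by 0.77 after Albulin than after insulin glargine, and by 0.50 than after Insulin-Apo. Thbd was higher after Albulin than after Insulin-Apo by 0.43. Of the complement list, C3ar1 was higher by 0.92 after Albulin and 1.13 after Insulin-Apo than after insulin glargine, and Itgam, a chain of complement receptor 3, by 0.69 after Insulin-Apo. Il6st, the signalling chain of the interleukin-6 receptor, was higher than after insulin glargine by 0.70 for Albulin and 0.66 for Insulin-Apo, while Cebpd, a transcription factor of the acute phase response, was lower after Insulin-Apo, with a difference of −1.07. Against saline arrays of Cebpd at 8.51, 8.51 and 8.55, those of Insulin-Apo lay lower, at 8.28, 7.74 and 8.04. Those of insulin glargine lay higher, at 8.94, 9.01 and 9.33, and neither difference from saline was called. Stat3 and Socs3 were also higher than after insulin glargine, by 0.82 and 2.27 for Albulin and by 0.59 and 1.78 for Insulin-Apo, and so were Jak1 after Albulin (0.36) and Foxa3 after Insulin-Apo (0.48).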

How the data were processed

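Total RNA of liver was amplified to biotinylated cRNA and measured on Affymetrix Mouse Gene ST arrays, 12 in 4 groups taken from the labels. The deposited values are log2 expression values that the authors made with RMA (background correction, normalization and summary of probes), per the labels and methods. RMA's version and the annotation build were not given in the sources used here. The methods describe the Albulin, Insulin-Apo and saline arrays, and whether all 12 arrays were normalized together is not stated. Array values carry no read depth, and the number of arrays limits the precision. RMA normalization makes values of different arrays comparable for a probe set, so no probe set was ranked against another.

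Of 28213 probe sets, 21640 had 1 gene symbol, 1321 had several and 5252 had none. A probe set was kept if 2 or more arrays of some group had values over 5, which left 25989 in the 9 arrays of Albulin, Insulin-Apo and saline and 26027 in all 12. Comparisons among those 3 groups were fitted with limma 3.58.1 in R 4.3.3 on 9 arrays, and those with insulin glargine on 12 arrays. A gene was called when B was over 0 at a prior proportion of 0.01. Promoter windows came from RefSeq (GRCm38.p6), where the genomic neighbours were also read. The fit was tested on simulated data, and matplotlib 3.10.9 (Python 3.11.15) drew the figures.

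The members, the lists and the tests were chosen with earlier results of these data known, and no set test was run. Every gene of the set is named. Genes called in any comparison, the fibrinogen chains, F2 and C9 are given array by array, others by their difference from saline, and array values of further uncalled genes were added after their values were seen. Called genes of the other lists are named up to 6 per comparison. Promoters are those of the genes called against saline.

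The alternatives were no filter or a filter at 6, median centring, quantile normalization repeated, a block for the replicate number, only the arrays of the 2 groups compared, all 12 arrays, calls by adjusted p under 0.05, without or with a minimum log2 change of 0.58, an intensity trend in the prior variance, the mean of a gene's probe sets, and each array left out in turn.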

Additional observations from a re-analysis of the deposited data

Results flagged for a closer look

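Genes whose response differed between insulin compounds given at the same dose and time drew attention, by the limma test of the difference between the compounds. Between Albulin and insulin glargine they were Serpina10 at 1.49, Serpinf2 at 0.73, Mbl1 at 0.49, Fga at 0.41 and Fgg at 0.35 on the log2 scale, all higher after Albulin. Between Insulin-Apo and insulin glargine they were Serpina10 at 1.52, C5ar1 at 0.99, C8a at 0.75, Mbl1 at 0.67, Serpinf2 at 0.66, Fga at 0.38 and Fgg at 0.31, all higher after Insulin-Apo. The arrays of the compared groups did not overlap for any of these 12 differences, but the genes were picked by a test on the same arrays. Lack of overlap was common among genes not called too. Between Albulin and insulin glargine it held for F2, F7, F10, Fgb, Proc, Proz, Serpinc1, Serpind1, Serping1, Plg, Kng1 and C8g, among others. Its share over all probe sets was not computed, so it adds nothing to the test. Both comparisons share the insulin glargine arrays. Groups of 3 arrays were not tested for single arrays far from the rest.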

How the results depend on the processing

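Of 20 calls of single genes under 426 alternative fits, 367 were kept, 59 were lost and 0 turned direction. The 4 calls of Serpina10, the 3 of Serpinf2 and that of Mbl1 between Insulin-Apo and insulin glargine were kept in every alternative. With only the arrays of the 2 groups compared, the number of genes called was 1 for Albulin over saline in place of 3, 2 for Insulin-Apo over saline in place of 4, 1 for Albulin over Insulin-Apo in place of 0, 3 for Albulin over insulin glargine in place of 5 and 4 for Insulin-Apo over insulin glargine in place of 7. Fewer arrays entered those fits. With an adjusted p under 0.05 the number was 6 for Albulin over saline, 7 for insulin glargine over saline in place of 1 and 9 for Albulin over insulin glargine. With a log2 change of 0.58 besides, it was 1 for Albulin over saline and 2 for insulin glargine over saline.

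With each array left out in turn, the number called ranged from 1 to 3 for Albulin over saline (1 without Albulin replicate 2 or 3 or saline replicate 2) and from 2 to 4 for Insulin-Apo over saline (2 without Albulin replicate 1 or 3 or Insulin-Apo replicate 1 or 2). It ranged from 1 to 2 for insulin glargine over saline (2 without insulin glargine replicate 1), from 0 to 1 for Albulin over Insulin-Apo (1 without saline replicate 1), from 5 to 6 for Albulin over insulin glargine and from 5 to 8 for Insulin-Apo over insulin glargine. The median of the 37 genes ranged from 0.11 to 0.27 for Albulin over insulin glargine and from 0.08 to 0.24 for Insulin-Apo over insulin glargine, both lowest without insulin glargine replicate 3. The cause of these changes was not tested, beyond the smaller number of arrays.

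Arrays with the same replicate number showed little common deviation, with correlations from −0.26 to 0.14 over 18 pairs. The labels do not say whether the numbers pair the samples, and these correlations would miss a shared factor with a small effect. With the replicate number as a block, 2, 3, 1, 0, 5 and 7 genes were called in the 6 comparisons, and Fgg after Albulin (adjusted p = 0.046) and Fga after Insulin-Apo (adjusted p = 0.0419) were lost. Fga, Fgb, Fgg and Kng1 lie near the top of the arrays' range, and whether this limits their differences was not tested.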
